A study of Mus musculus with 2 samples.

Results

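Mesothelial cells line the abdominal cavity and cover the fat pads within it, and 10 genes of their epithelial programme were followed here through single-cell RNA sequencing of mouse perigonadal white adipose tissue (gWAT). The genes were picked by symbol, as 10 of the 32285 genes in the count tables: the type II keratins Krt7 and Krt8, the type I keratins Krt18, Krt19 and Krt14, the uroplakins Upk1b and Upk3b, and the cell surface genes Msln, Muc16 and Lrrn4. All 10 were found in both tables, and all 10 had at least 50 counts over both libraries in the cells of interest. The cells came from male Cyp1a1 fate reporter mice of the genotype Cyp1a1Cre x R26LSL-eYFP, in which Cre driven by the Cyp1a1 promoter permanently switches on eYFP, and eYFP+ cells are therefore those with present or past activity of Cyp1a1, which the aryl hydrocarbon receptor (AHR) induces. Over 12 weeks the mice ate purified diets, of which the low-fat diet (LFD) contained 10% and the high-fat diet (HFD) 60% fat. Both groups were given FICZ, a ligand of AHR, by injection (10 mg/kg) 5 days ahead of tissue collection. The stromovascular fraction (SVF), which is what remains once mature adipocytes have floated off, was sorted for live eYFP+ cells, and 1 library was made per diet from pooled mice. Diets began when the mice were 6 to 10 weeks old. No cell could be tied to a mouse, each diet had 1 library, and there was therefore no replicate check, no test and no p-value for any difference between diets.

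Keratins are the intermediate filament proteins of epithelia, and a filament needs 1 type I and 1 type II chain. KRT8 with KRT18 is the pair of simple epithelia, KRT7 and KRT19 are their frequent partners, and KRT14 is a basal-layer keratin of stratified epithelia. Uroplakins are membrane proteins of the urothelial plaque, UPK1B being a tetraspanin and UPK3B a single-pass partner that mesothelium also makes. Mesothelin (MSLN) is a lipid-anchored surface protein, MUC16 (the CA125 antigen) is the large membrane mucin that binds it, and LRRN4 is a leucine-rich repeat membrane protein. Mesothelial cells arise from mesoderm and combine such epithelial proteins with vimentin and with the transcription factor WT1.

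Several of the genes are neighbours. On the GRCm38 assembly (GENCODE M21), Krt7 lies at chr15:101411043-101430313 on the plus strand, Krt8 at chr15:101996698-102004482 on the minus strand and Krt18 at chr15:102028180-102032027 on the plus strand, with 23697 bases between the diverging Krt8 and Krt18. Krt19 (chr11:100140810-100148665) and Krt14 (chr11:100203162-100207548) are both on the minus strand within the type I keratin cluster. Upk1b is at chr16:38773184-38800328 (minus), Upk3b at chr5:136038496-136046487 (plus), Msln at chr17:25748613-25754378 (minus), Muc16 at chr9:18495455-18674530 (minus) and Lrrn4 at chr2:132868305-132880891 (minus). All 10 are annotated as protein-coding.

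RefSeq promoter sequences (GRCm38.p6, from 250 bases before the start of the gene to 50 after) were at hand for 7 of the 10 genes. The 3 printed here are those whose RefSeq start fell within 36 bases of the GENCODE start, namely Krt18 as a keratin, Upk3b as the uroplakin with the larger ratio between diets below, and Lrrn4 as a surface gene. They are given 5′ to 3′ on the strand of the gene, covering chr15:102027966-102028265 (plus) for Krt18, chr5:136038246-136038545 (plus) for Upk3b and chr2:132880813-132881112 (minus) for Lrrn4. Capitals mark matches on either strand to the core GCGTG that AHR binds or to the TEAD motif CATTCC, the latter printed as GGAATG where it lies on the other strand.
Krt18: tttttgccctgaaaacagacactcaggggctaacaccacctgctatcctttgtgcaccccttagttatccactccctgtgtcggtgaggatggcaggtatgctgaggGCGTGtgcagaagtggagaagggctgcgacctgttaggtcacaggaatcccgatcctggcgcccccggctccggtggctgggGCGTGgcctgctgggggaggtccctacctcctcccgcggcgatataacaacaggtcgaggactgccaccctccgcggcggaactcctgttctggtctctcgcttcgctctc
Upk3b: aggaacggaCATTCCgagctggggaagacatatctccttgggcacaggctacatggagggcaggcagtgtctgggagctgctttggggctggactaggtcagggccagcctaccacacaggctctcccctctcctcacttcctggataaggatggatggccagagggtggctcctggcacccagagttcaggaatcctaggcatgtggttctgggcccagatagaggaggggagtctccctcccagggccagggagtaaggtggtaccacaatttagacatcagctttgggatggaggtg
Lrrn4: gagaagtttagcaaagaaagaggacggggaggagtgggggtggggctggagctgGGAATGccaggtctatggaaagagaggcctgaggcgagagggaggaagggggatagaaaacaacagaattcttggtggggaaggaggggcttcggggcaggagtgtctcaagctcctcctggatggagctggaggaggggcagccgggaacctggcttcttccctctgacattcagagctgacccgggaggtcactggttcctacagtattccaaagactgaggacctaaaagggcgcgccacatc
Krt18 held 2 AHR cores, starting 143 and 61 bases before the start, and Upk3b and Lrrn4 held 1 TEAD motif each, 241 and 196 bases before it. No overlap of the marked motifs occurred in these 3 windows. Such short matches are common, the AHR core being present in 32.4% and the TEAD motif in 14.7% of all 32851 promoter windows of this length. Of the other 4 windows, those of Krt7, Krt8, Krt14 and Muc16, only that of Krt14 held either motif, 1 of each sharing letters, and the AP-1 motif TGANTCA, present in 7.81% of all windows, was found in none of the 7. A match of letters is not a bound site, and no binding was measured in these data.

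After filtering, 10216 LFD and 8537 HFD cells remained, with a median of 10636.5 and 13231 unique molecular identifiers (UMIs, one per captured RNA molecule) per cell, and the libraries shared 22 barcodes. Cells were sorted into classes by counting how many of 10 marker genes of each cell type had a UMI, with none of the 10 genes above among the markers, and names ending in -like rest on those markers. For the stromal-like class the larger of the number of stromal and the number of mesothelial markers was used, so both lists took part in admitting these cells. Of all cells, 6161 in LFD (60.3%) and 4189 in HFD (49.1%) were stromal-like with at least 1 UMI of Wt1, and these Wt1-positive cells are the main population below. Their median depth was 12776 UMIs in LFD and 17020 in HFD. A median of 9 and 8 of the 10 stromal markers (collagens, Pdgfra and the like) and of 5 and 7 of the 10 mesothelial markers, Wt1 among them, had a UMI per cell in LFD and HFD, which describes the cells that the rule admitted. Epithelial markers were near 0 in them, with a summed level of 3.15 and 6.24 CPM (counts scaled to a total of 1000000), Krt5 and Esrp1 at 0 counts, and Cdh1, the epithelial cadherin, at 27 and 17 counts in all. The gate on Wt1 was sensitive to detection, as 13.6% of the LFD and 8.33% of the HFD Wt1-positive cells had exactly 1 Wt1 UMI.

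The first question was in which sorted cells the genes were expressed. Counts were summed over the cells of a class and expressed as CPM, with 95% intervals that cover counting error only. Summed over the 10 genes, Wt1-positive stromal-like cells had 514 CPM in LFD (509 to 519) and 1014 CPM in HFD (1006 to 1021). Wt1-negative stromal-like cells, 503 in LFD and 273 in HFD, followed with 351 CPM (335 to 368) and 283 CPM (260 to 308). Every other class with at least 1000000 UMIs lay far below: macrophage-like cells had 19.6 and 23.4 CPM, endothelial-like cells 20.6 and 23.0 CPM, B-like cells 12.0 and 25.8 CPM, and plasma-like cells 8.18 and 10.5 CPM. The intervals of the endothelial-like and macrophage-like levels overlapped in both libraries, so these neighbours in the order did not differ beyond counting error. Wt1 itself, which these classes should lack, was present in them at 3.86 to 19.2 CPM against 309 and 339 CPM in the Wt1-positive cells. No expression was read from the low summed values of the other classes. The order of depth was different, with median UMIs of 12280 and 13656 in plasma-like and 4524 and 3220.5 in endothelial-like cells.

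**Figure D1:**
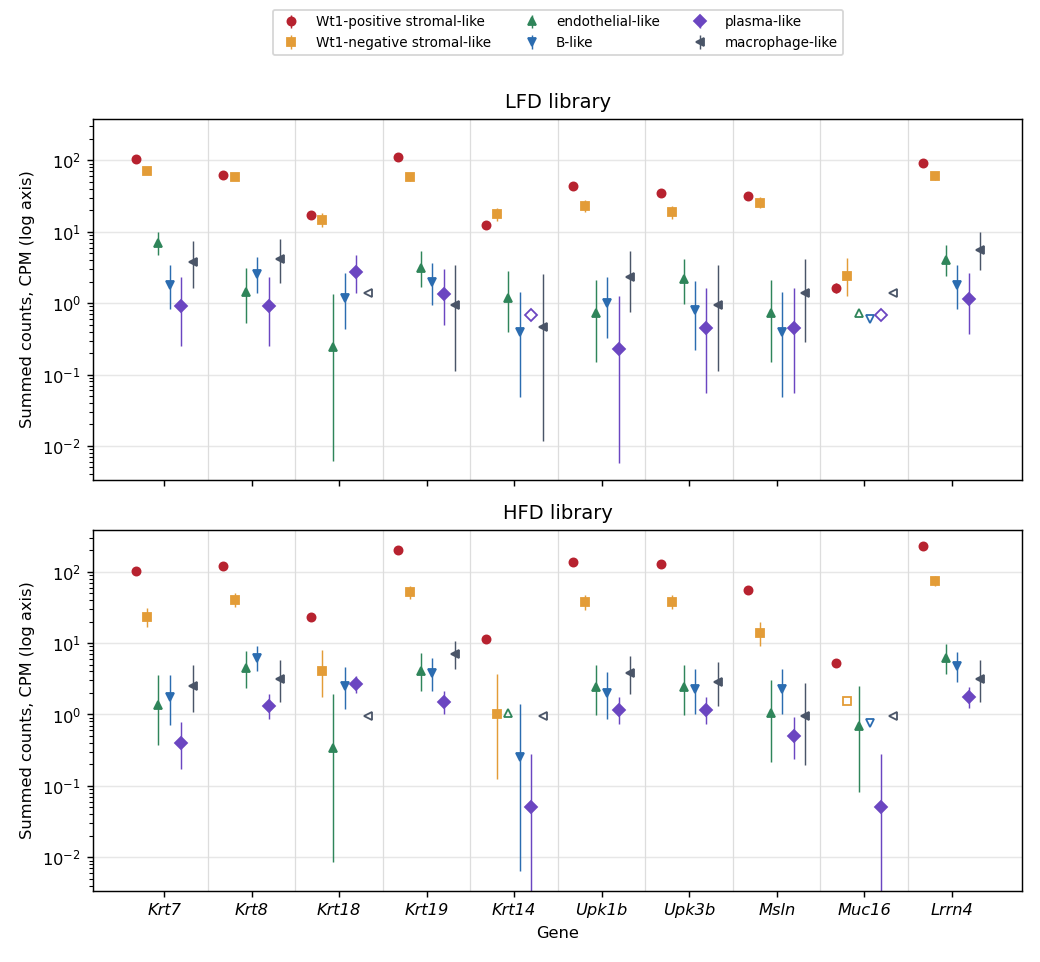
Level of each gene (summed counts as CPM, log axis) in 6 classes of cells of the LFD library (top) and the HFD library (bottom), with 95% counting intervals; an open symbol marks a class with 0 counts and stands at the level of 3 counts. Wt1-positive stromal-like cells reached 204 CPM of Krt19 in HFD, whereas the endothelial-like, B-like, plasma-like and macrophage-like cells stayed at or below 6.96 CPM for each gene.

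Gene by gene, 7 of the 10 were at least 10-fold higher in Wt1-positive stromal-like cells than in each of the endothelial-like, B-like, plasma-like and macrophage-like classes in LFD, and 8 in HFD. Among all genes with sufficient counts the same was true of 2.3% of 13335 in LFD and 2.6% of 13160 in HFD. The genes were picked because they are known in mesothelium, and with earlier results of these data known, so the count describes the choice as much as the cells. Krt19 stood 35.2-fold in LFD and 29.2-fold in HFD above the highest of the 4 classes, and Upk3b 16.3-fold and 45.6-fold. Muc16 was too sparse to be placed, with 1.64 and 5.25 CPM on LFD and HFD, since the level of 3 counts in a small class was already 1.40 CPM. These 4 classes were chosen for the comparison after shallower ones had been seen to set the result by their low totals.

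Krt18 took a larger share of the counts in plasma-like and B-like cells. It made up 12 of 36 counts of the 10 genes in LFD plasma-like cells (33.3%, exact interval 18.6 to 51.0%) and 53 of 210 in HFD plasma-like cells (25.2%, 19.5 to 31.7%), as against 3.40% and 2.31% in Wt1-positive cells. In B-like cells it made up 6 of 60 counts (10.0%, 3.76 to 20.5%) and 10 of 103 (9.71%, 4.75 to 17.1%). In macrophage-like cells it made up 0 of 42 and 0 of 74 counts. The level in plasma-like cells was low, at 2.73 and 2.66 CPM, and 3.34% and 3.77% of these cells had a UMI. Both libraries showed this larger share of Krt18, beyond counting error, though the LFD B-like counts came from only 5 cells. Other shares also departed from those of the Wt1-positive cells. Krt7 made up 33.7% (23.9 to 44.7%) in LFD endothelial-like cells against 20.6%, and Krt8 24.3% (16.4 to 33.7%) in HFD B-like cells against 11.8%. Krt7 was lower in HFD plasma-like cells, at 3.81% (1.66 to 7.37%) against 10.2%. Apart from this, 2 LFD cells with epithelial markers but too few to define a class had 54 Krt18, 29 Krt8 and 25 Krt7 counts between them and no count of either uroplakin, Msln, Muc16 or Lrrn4.

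Within the Wt1-positive cells the level of the genes varied widely from cell to cell. The summed level per cell had a median of 103 CPM in LFD and 500.1 CPM in HFD, a 95th percentile of 2339 and 3685 CPM and a maximum of 14944 and 16804 CPM. No count of any of the 10 genes was found in 38.5% of LFD and 16.1% of HFD cells. The 10% of cells with the highest level held 60.5% of all counts of the genes in LFD and 41.3% in HFD. Deeper cells show more genes, so each cell was thinned to 5000 UMIs, which left out 84 LFD and 94 HFD shallower cells. At that depth at least 1 gene was seen in 47.9% of LFD cells (2911 of 6077, exact interval 46.6 to 49.2%) and 73.4% of HFD cells (3004 of 4095, 72.0 to 74.7%). At least 5 genes were seen in 7.03% (427 of 6077, 6.40 to 7.70%) and 16.8% (689 of 4095, 15.7 to 18.01%), and at least 8 in 1.02% and 3.17%. Without thinning, at least 5 genes were seen in 15.5% and 35.3%. At 2000 UMIs per cell, at least 1 gene was seen in 33.3% of LFD and 57.7% of HFD Wt1-positive cells, against 1.95% to 2.76% and 2.23% to 5.92% in the endothelial-like, B-like, plasma-like and macrophage-like classes.

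**Figure D2:**
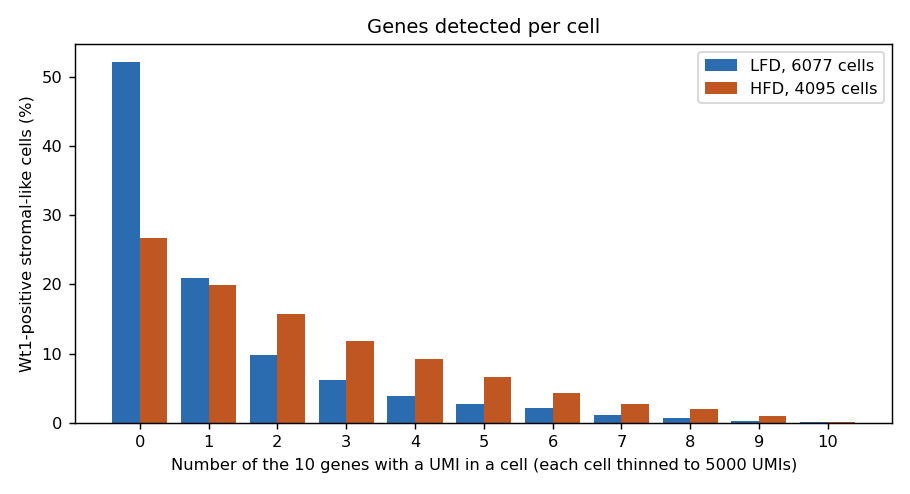
Share of Wt1-positive stromal-like cells (%) by how many of the 10 genes had a UMI after each cell was thinned to 5000 UMIs, for 6077 LFD and 4095 HFD cells. Cells with none of the genes made up 52.1% in LFD and 26.6% in HFD, and the shares fell off with the number of genes.

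All 45 pairs of the genes were positively correlated across cells on the scale of log2(counts per 10000 + 1). Pearson's r ran from 0.165 to 0.648 in LFD (median 0.402) and from 0.125 to 0.663 in HFD (median 0.430), a description over 6161 and 4189 cells that share their library and differ in depth. Among all pairs of the 10072 genes seen in at least 5% of these cells in both libraries, 55.9% in LFD and 58.4% in HFD had an r above 0, with a median of 0.00279 and 0.005. Krt7 with Krt19 was the closest pair in LFD (0.648) and Upk1b with Upk3b in HFD (0.663). The partners Krt7 and Krt19 also stood at 0.617 in HFD.

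To follow each gene along the gradient, the cells of a library were ranked by the summed level of the other 9 genes and cut into 5 equal bins, which are ranges and not cell types. Krt7 rose from 3.31 to 392 CPM between the lowest and the highest bin in LFD and from 2.10 to 362 CPM in HFD. Krt8 went from 6.13 to 226 CPM in LFD and from 10.5 to 377 CPM in HFD. Krt19, the smallest keratin, went from 14.4 to 371 CPM and from 14.4 to 587 CPM. The steps were steep at the top: the highest bin held 87.6% of all Krt18 counts in LFD and 84.2% in HFD, and 91.7% and 91.3% of those of Krt14. Muc16 was almost confined to it, with 133 of 137 LFD counts and 360 of 383 HFD counts (97.1% and 94.0%).

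Lrrn4 behaved otherwise, being spread down the gradient. Its lowest bin already had 22.1 CPM in LFD and 58.8 CPM in HFD, and its highest 228 and 402 CPM, which were 10.3 and 6.83 times as much. The highest bin held 53.9% and 34.9% of its counts, less than for any other of the 10 genes. Of the uroplakins, Upk1b went from 3.93 to 151 CPM in LFD and from 6.60 to 418 CPM in HFD, and Upk3b from 2.74 to 122 CPM and from 8.50 to 341 CPM. Msln went from 2.32 to 116 CPM and from 0.754 to 210 CPM. From bin to bin, 4 of the 10 genes increased at every step in LFD and 9 in HFD. Over bins ranked by all 10 genes, 9% of 13335 genes in LFD and 10.1% of 13160 in HFD did so. Cells at 0 filled more than the first LFD bin. For Krt7, Krt8, Krt19, Upk1b and Lrrn4, both of the lowest LFD bins held only cells with 0 counts of the other 9 genes. The first LFD step thus lay wholly or in part between tied cells, so the 4 genes in LFD and 9 in HFD cannot be compared.

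**Figure D3:**
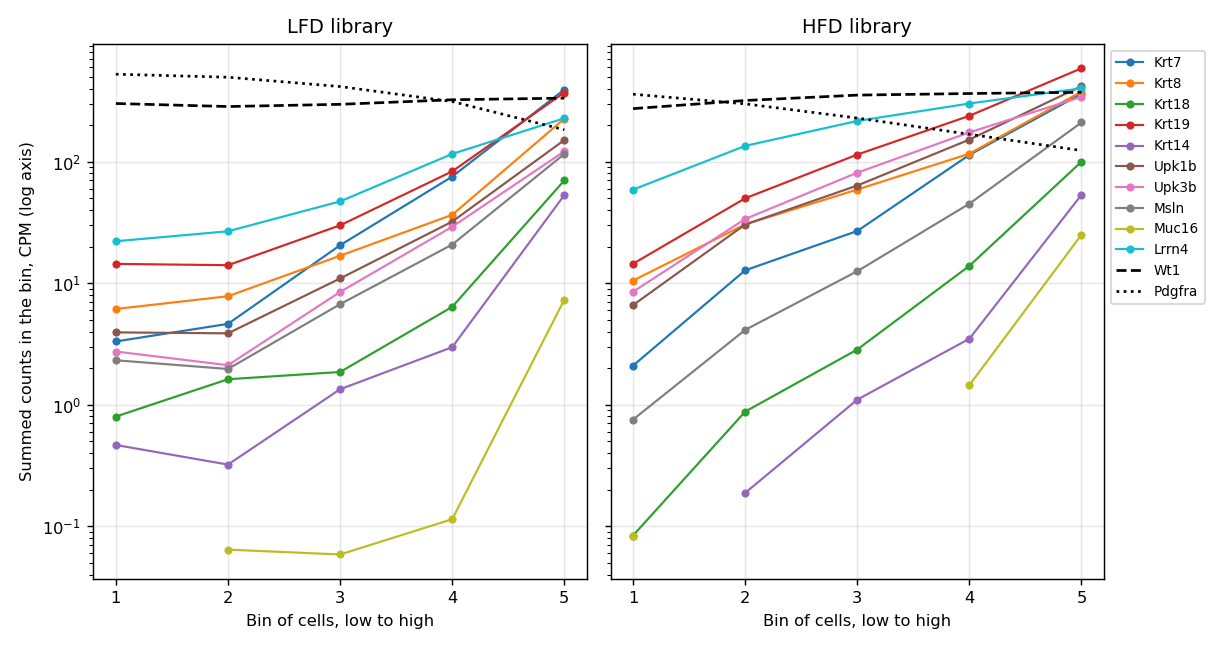
Level of each gene (summed counts as CPM, log axis) in 5 equal bins of Wt1-positive stromal-like cells ranked by the other 9 genes, for LFD (left) and HFD (right); bins with 0 counts are not drawn. Wt1 (dashed) and Pdgfra (dotted) are over bins ranked by all 10 genes: Wt1 went from 301 to 333 CPM in LFD while Pdgfra went from 525 to 183 CPM.

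Along bins ranked by all 10 genes, Wt1 changed less than most of the fibroblast genes, its range being limited by the gate that asked for a Wt1 UMI in every cell. Wt1 went from 301 to 333 CPM in LFD and increased at each step in HFD, from 273 to 372 CPM. Pdgfra, the receptor used to mark adipose stem and precursor cells, went from 525 to 183 CPM and from 359 to 123 CPM, and the summed stromal list from 40285 to 20082 CPM and from 47804 to 19862 CPM. The adipocyte precursor cell (APC) fibroblast list went from 1097 to 603 CPM in LFD and from 4527 to 814 CPM in HFD. At least 1.5-fold lower in the highest than in the lowest bin were 6 of 10 stromal genes in LFD and 7 in HFD, with 0 higher, and 5 and 7 of the 9 APC genes with enough counts. The 1 APC gene that was higher in each library was Dpp4, a surface peptidase of fibroblast precursors, at 4.79 and 37.3 CPM in LFD and 35.9 and 82.5 CPM in HFD. In LFD, median depth also went up with the bins, from 11473 to 13901.5 UMIs, and the share of cycling cells from 18.4 to 28.4%. In HFD the lowest bin had 14214 UMIs and 14.1% cycling cells, and the other 4 had 16568 to 18760 UMIs, falling from the second bin on, and 24.1 to 27.9% cycling cells. The part of depth and cycling in the gradient was not tested. Of the markers of other cell types, the endothelial list rose from 28.7 to 74.5 CPM and from 39.3 to 128 CPM, but this came from 1 of its 10 genes, the junction protein Esam, at 11.9 and 63.9 CPM in the lowest and highest LFD bins and 13.7 and 117 CPM in the HFD ones. Pecam1 and Cdh5, which define endothelium, stayed between 0.935 and 4.19 CPM in these bins. The macrophage list was at 31.0 to 41.1 CPM in the LFD bins and at 79.3 CPM in the lowest and 31.3 to 48.3 CPM in the other HFD bins. The epithelial list was at 1.73 to 4.78 CPM in LFD and at 3.505 to 4.53 CPM in HFD except for 14.7 CPM in the third bin. The part of these markers in the gradient was not tested.

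Other genes of the programme were read in the same lowest and highest bins. Of all genes with enough counts, 11.2% of 11928 in LFD and 15.1% of 11802 in HFD were at least 1.5-fold higher in the highest bin, and 12.4% and 14.2% at least 1.5-fold lower. Of the 10 mesothelial markers, 7 were higher and 0 lower in LFD, and 8 and 0 in HFD. Nkain4 went from 109 to 511 CPM in LFD and from 152 to 704 CPM in HFD. Of the genes that anchor keratins or form junctions, 9 of the 16 with enough counts were higher in LFD and 14 of 17 in HFD, with 1 lower in each. Ppl (periplakin, which ties keratin filaments to the desmosome and was named after its values were seen) went from 3.99 to 37.8 CPM and from 9.29 to 83.9 CPM. Of the 8 genes of the apical surface and microvilli, 5 were higher and 1 lower in both libraries. Ezr (ezrin, which links actin to the microvillus membrane) went from 121 to 374 CPM and from 119 to 579 CPM. Krt10, the other keratin with the highest level, was flat, at 18.6 and 16.001 CPM in LFD and 16.7 and 16.6 CPM in HFD.

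By the fixed rule, the genes whose levels across single cells were most like the sum of the 10 were sought among 10064 candidates. They were Crip1 (r = 0.632 in LFD and 0.675 in HFD), Dmkn (0.631 and 0.637), Pkhd1l1 (0.601 and 0.671), Lgals7 (0.585 and 0.708), Nkain4 (0.573 and 0.604), Ptgis (0.564 and 0.553), Dbi, Prr15, Serpinb1a and Gpm6a. Pkhd1l1, Nkain4 and Gpm6a are among the mesothelial markers that took part in defining the stromal-like class. At the other end, the least alike were Col1a1 (-0.603 and -0.582), Col3a1 (-0.522 and -0.557), Col1a2 (-0.499 and -0.571), Serpinf1, Sparc, Pdgfra, Col5a1, Bgn, Igf1 and Cpxm1, most of which encode fibrillar collagens and matrix proteins. Col1a1, Col3a1, Col1a2, Serpinf1 and Pdgfra are among the stromal markers, which also took part in defining that class. Wt1 had an r of 0.0823 and 0.173, over a range that the gate on Wt1 restricts.

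The second question was whether the programme differed with diet. In Wt1-positive cells 7 of the 10 genes were at least 1.5-fold higher in HFD than in LFD and 0 were at least 1.5-fold lower. Of all 14346 genes with at least 50 counts, 8.91% were at least 1.5-fold higher, 5.03% were lower by as much, and 13.9% passed this size either way. The 10 genes were chosen with earlier results of these data known and varied together across cells, so the 7 are not separate observations. The median ratio of the 10 genes was 1.87, against 1.08 for all genes. With scaling by the median ratio of all genes, which lowers each log2 ratio by 0.11 (the median log2 ratio of all genes being 0.11), the same 7 genes stayed past 1.5-fold. Summed, the genes went from 514 to 1014 CPM, a ratio of 1.97 (95% counting interval 1.95 to 2.00). Wt1 went from 309 to 339 CPM (1.10, 1.08 to 1.12), which is no contrast to the 10 genes, since a Wt1 UMI admitted every cell.

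The keratins did not move as a block. Krt8 went from 62.9 CPM in LFD to 119 CPM in HFD (ratio 1.90, 1.83 to 1.97) and Krt19 from 110 to 204 CPM (1.85, 1.80 to 1.90). Krt18, the usual partner of Krt8, went from 17.5 to 23.4 CPM (1.34, 1.25 to 1.44), short of 1.5-fold. Krt7 had 106 CPM on LFD and 103 CPM on HFD (0.975, 0.945 to 1.01). Krt14 was at 12.6 and 11.5 CPM (0.913, 0.833 to 1.00), so for these last 2 genes the difference was within counting error. With median-ratio scaling both were lower in HFD beyond it, Krt7 at 0.901 (0.874 to 0.929) and Krt14 at 0.845 (0.770 to 0.926). A stricter cell filter (at least 2000 UMIs, under 5% mitochondrial) gave 0.658 for Krt7, 0.538 for Krt14 and 0.894 for Krt18. How reads shared with near-identical keratin genes or pseudogenes were assigned is not shown by the counts.

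Both uroplakins and all 3 surface genes were higher in HFD. Upk3b went from 35.3 to 130 CPM (ratio 3.68, 3.53 to 3.84), and Upk1b from 43.2 to 136 CPM (3.14, 3.02 to 3.26). Lrrn4 went from 93.2 to 227 CPM (2.44, 2.37 to 2.51). Muc16 went from 1.64 to 5.25 CPM (3.20, 2.62 to 3.92) on 137 and 383 counts. Its binding partner Msln went from 31.8 to 54.5 CPM (1.72, 1.63 to 1.80), but its ratio was 1.04 with the stricter cell filter. Shares of cells thinned to 2000 UMIs moved the same way, Upk3b being seen in 5.35% of LFD and 19.8% of HFD cells and Lrrn4 in 14.1% and 31.0%, while Krt7 was seen in 10.7% and 12.2%. In the endothelial-like, B-like, plasma-like and macrophage-like classes at the same depth, drawn from medians of 3220.5 to 13656 UMIs, Upk3b was seen in at most 0.577% of LFD and 0.612% of HFD cells, and Lrrn4 in at most 0.962% and 1.84%, each of these being the endothelial-like share.

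The make-up of the programme shifted accordingly. Krt7 took 20.6% of all counts of the 10 genes in LFD (exact interval 20.2 to 21.0%) and 10.2% in HFD (9.97 to 10.4%). Upk1b took 8.40% and 13.4%, Upk3b 6.87% and 12.8%, and Lrrn4 18.1% and 22.4%. Krt19 had close to the same share in both, at 21.4% and 20.1%, and Krt8 at 12.2% and 11.8%.

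The ratios were looked at within parts of the population, because its make-up, as read from detected markers, differed between the libraries. Cells with at least 5 of the 10 APC markers were 841 in LFD and 1614 in HFD. In these cells the summed level was 453 CPM in LFD and 953 CPM in HFD (ratio 2.11). In the cells with fewer APC markers it was 524 and 1051 CPM (2.01). Krt18 had a ratio of 0.999 (0.824 to 1.22) in the former and 1.64 (1.52 to 1.77) in the latter. These markers, like those of proliferation below, were counted without thinning. Median depth was 12776 UMIs in LFD and 17020 in HFD, and its part in the numbers of cells was not tested. Cycling cells, with at least 3 of 10 proliferation markers, had 602 and 1070 CPM (1.78), and non-cycling cells 477 and 991 CPM (2.08). Upk1b, Upk3b and Lrrn4 were at least 2.39-fold higher in HFD in both the cycling and the non-cycling cells. The ratio was lower in cycling than in non-cycling cells, with counting intervals that did not overlap, for 6 of the 10 genes and higher for 1. Among all 12284 genes with at least 50 counts in both kinds of cell, many of them with fewer counts than these, the same was true of 5.67% and 5.31%. Msln had a ratio of 1.17 (1.07 to 1.27) in cycling and 2.07 (1.95 to 2.20) in non-cycling cells, and Muc16 of 1.75 (1.24 to 2.47) and 4.29 (3.33 to 5.58). With median-ratio scaling the Msln interval in cycling cells included 1 (1.07, 0.979 to 1.16). Krt7 (0.890 and 1.02), Krt19 (1.62 and 1.95), Upk1b (2.74 and 3.36) and Upk3b (3.26 and 3.87) also had the lower ratio in cycling cells. Krt14 (1.05 and 0.809) had the higher ratio there, its intervals being almost in contact. Of the 10 genes, Krt14 differed most between the cycling and non-cycling cells of a library, at 19.1 and 9.88 CPM in LFD and at 20.1 and 7.996 CPM in HFD.

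**Figure D4:**
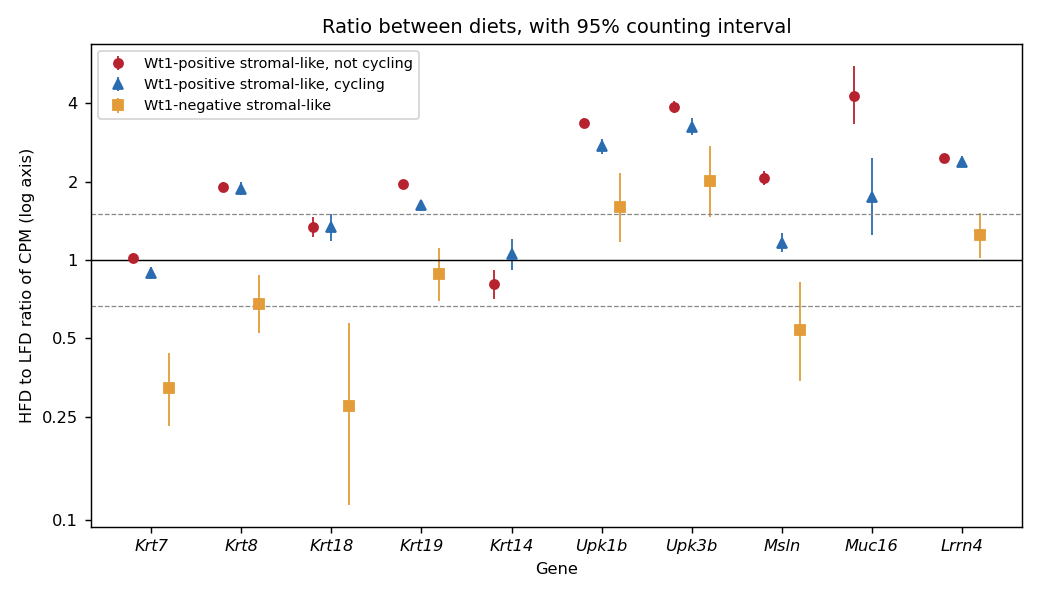
HFD to LFD ratio of CPM (log axis) for each gene in non-cycling and cycling Wt1-positive stromal-like cells and in Wt1-negative stromal-like cells, with 95% counting intervals; the solid line marks equal levels, the dashed lines a 1.5-fold difference, and points with 3 or fewer counts in a library are not drawn. Upk3b reached 3.87 in non-cycling cells, while Krt7 lay at 1.02 and 0.890 in non-cycling and cycling cells and at 0.321 in Wt1-negative cells.

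Stromal-like cells with no Wt1 UMI gave another picture for the keratins. Krt7 had 71.1 CPM on LFD and 22.9 CPM on HFD there (ratio 0.321, 0.230 to 0.439). Krt18 was at 14.7 and 4.06 CPM (0.275, 0.115 to 0.572) and Krt8 at 59.0 and 40.1 CPM (0.680, 0.524 to 0.875). Krt14 was at 17.6 CPM on 87 counts in LFD and at 1.02 CPM on 2 counts in HFD (0.0578, 0.00689 to 0.215). Msln was at 25.5 and 13.7 CPM (0.539, 0.342 to 0.821), and Muc16 had 12 counts in LFD and 0 in HFD. Krt19 had a ratio of 0.882 (0.696 to 1.11), within counting error. Upk1b (1.60, 1.17 to 2.16), Upk3b (2.01, 1.46 to 2.75) and Lrrn4 (1.24, 1.01 to 1.52) were higher in HFD, but with median-ratio scaling the interval of Lrrn4 included 1 (1.13, 0.922 to 1.38). Krt8, Krt18 and Msln thus had ratios on opposite sides of 1, with intervals that excluded it, in these cells and in non-cycling Wt1-positive cells, as did 4.77% of the 9122 genes with at least 50 counts in both. These cells differed between the libraries in other ways. Medians were 9703 UMIs in LFD and 6479 in HFD, 3 and 5 APC markers, and 3 and 2 mesothelial markers. Cycling cells were not left out of them and made up 13.9% in LFD and 5.86% in HFD. The part of these differences in the ratios was not tested.

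Since more HFD cells sat high on the gradient, each gene was also compared between cells in which the same number of the other 9 genes was seen after thinning to 5000 UMIs, a comparison chosen after the data had been seen. Krt7 was lower in HFD in all 4 groups of cells. With 0 of the other genes its LFD and HFD levels were 13.8 and 8.09 CPM, with 1 to 2 at 101 and 37.7 CPM, with 3 to 4 at 335 and 156 CPM, and with 5 to 9 at 639 and 414 CPM. Each interval of the ratio lay below 1, the last being 0.647 (0.616 to 0.680). Krt18 and Krt14 were lower in every group as well, with ratios of 0.791 (0.726 to 0.862) and 0.520 (0.469 to 0.578) in the cells with 5 to 9 of the others.

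The uroplakins and Lrrn4 were higher in HFD in all 4 groups. Upk1b ran from 1.76 to 2.31 across the 4 groups and Upk3b from 1.97 to 4.40, and each interval lay above 1. Lrrn4 had ratios of 2.59, 2.00, 1.46 and 1.40 from the group with 0 of the others to that with 5 to 9, the last 2 being short of 1.5-fold. In the cells with 5 to 9 of the other genes, Upk1b had 275 and 513 CPM on LFD and HFD, Upk3b 197 and 389 CPM, and Lrrn4 315 and 442 CPM. Krt8 had a ratio of 1.75 (1.52 to 2.01) in cells with 0 of the others but 0.999 (0.950 to 1.05) in those with 5 to 9, and Krt19 1.82 (1.66 to 2.01) and 1.13 (1.08 to 1.19). Msln was lower in HFD with 0 to 4 of the others (0.590, 0.610 and 0.829) and equal within counting error with 5 to 9 (1.02, 0.956 to 1.09). Because the groups are made from the genes themselves and a difference in the others alters who is in a group, these ratios describe the balance among the genes and not a separate effect of diet.

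**Figure D5:**
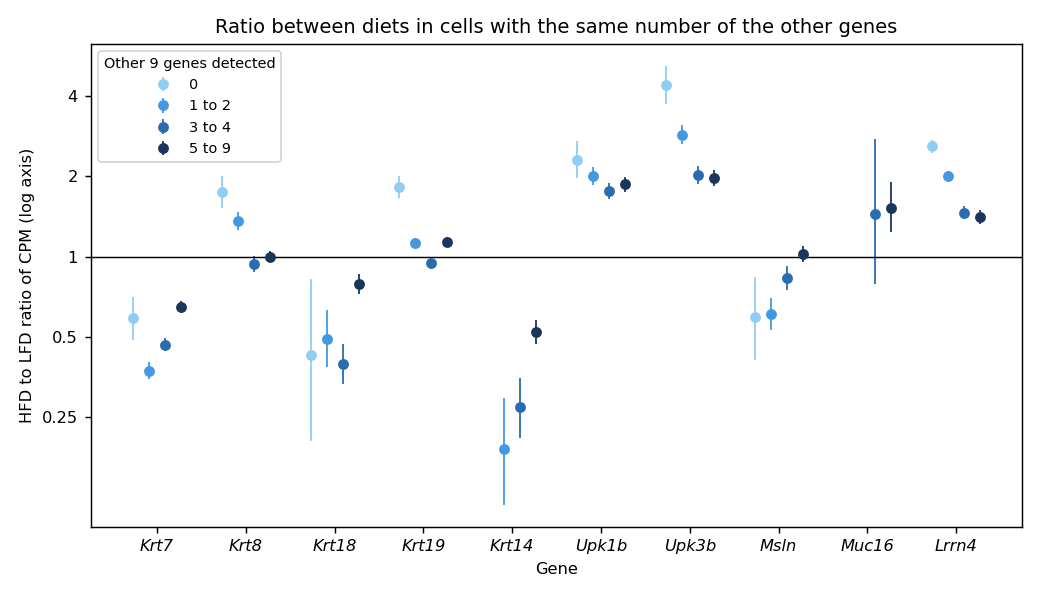
HFD to LFD ratio of CPM (log axis) for each gene among Wt1-positive stromal-like cells in which 0, 1 to 2, 3 to 4 or 5 to 9 of the other 9 genes had a UMI after thinning to 5000 UMIs, with 95% counting intervals; points with 3 or fewer counts in a library are not drawn. In cells with 5 to 9 of the others, Krt7 lay at 0.647, Krt8 at 0.999 and Upk3b at 1.97.

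The genes around the programme were compared between diets in the same Wt1-positive cells, with the shares of all genes given above as background. Of 14 other keratins only 4 had at least 50 counts and none of these was 1.5-fold different. Krt10 was at 17.3 and 16.1 CPM, Krt23 at 1.58 and 1.11 CPM, Krt222 at 0.659 and 0.768 CPM and Krt80 at 0.563 and 0.726 CPM. Krt4, Krt5 and Krt6a had 0 counts in both libraries, which allows up to 0.0359 CPM in LFD and 0.0411 CPM in HFD (3 counts), and KRT5 is the usual partner of KRT14. Of 10 uroplakins and relatives of the surface genes 3 could be compared, and 1 was higher in HFD: Lrrn4cl, named for its likeness to one end of Lrrn4, at 24.6 and 55.2 CPM (ratio 2.24). Lrrn2 was at 11.4 CPM in both. Upk2 and Upk3a, which complete the bladder plaque, had 0 counts in both.

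Of 6 other intermediate filament genes, 1 was past 1.5-fold, namely Vim (vimentin), at 1693 and 2576 CPM (ratio 1.52). Lmna was at 398 and 401 CPM, Des (desmin) at 149 and 146 CPM and Lmnb1 at 36.3 and 42.1 CPM. The genes that tie keratins to junctions or form them were higher in 10 of 18 cases and lower in 0. The 4 with the highest levels were the mesenchymal cadherin Cdh11 at 240.3 and 370 CPM (1.54), Dst at 120.0 and 159 CPM (1.33), the N-cadherin gene Cdh2 at 109 and 125 CPM (1.15) and Cldn10 at 108 and 121 CPM (1.12). Larger ratios were seen for the desmosomal plakins Evpl (3.56), Dsp (3.39) and Ppl (2.67) and for the tight junction claudin Cldn15 (3.61). These genes were named after their values were seen. Evpl, at 0.647 and 2.30 CPM, and Dsp, at 1.07 and 3.62 CPM, had low levels. Of other genes in the list, Jup (1.77) and Pkp2 (1.55) were past 1.5-fold, and Dsg2 (1.26) and Pkp4 (0.903) were not. Cldn15 stands in both this list and that of the mesothelial markers and took part in defining the stromal-like class, so it is counted in both lists here and along the bins.

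Of 8 apical genes 4 were higher and 0 lower. Ezr went from 205 to 323 CPM (1.58) and the tetraspanin Cd9 from 191 to 360 CPM (1.88), while Slc9a3r1, the ezrin-binding scaffold, was at 343 and 320 CPM and Msn at 141 and 166 CPM. Among the mesothelial markers, which had taken part in defining the stromal-like class, 5 of 10 were higher and 0 lower. Nkain4 went from 265 to 491 CPM (1.86) and Ildr2 from 139 to 215 CPM (1.55), with the transcription factor Gata6 at 255 and 327 CPM (1.28). The APC fibroblast list was higher too, in 8 of 10 genes. Lum went from 260 to 428 CPM (1.64), Fbn1 from 212 to 384 CPM (1.81) and Mfap5 from 66.8 to 229 CPM (3.42), while Icam1 was at 159 CPM in both. Genes of the mesothelial and of the APC fibroblast list were thus both higher in the HFD Wt1-positive cells, although along the gradient within each library the summed levels of these lists went in opposite directions, from 899.6 to 1804 CPM in LFD and from 977 to 2639 CPM in HFD for the mesothelial list. With median-ratio scaling the numbers at least 1.5-fold higher were 5 of 18 for linkers and junctions, 3 of 8 for apical genes, 4 of 10 for mesothelial markers, 8 of 10 for APC genes and 0 of 6 for other intermediate filaments. Vim, Cdh11, Ezr and Ildr2 then came to 1.41, 1.42, 1.46 and 1.43, and Krt23, at 0.649, was then at least 1.5-fold lower.

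Several ratios moved with the settings. When only cells with at least 2000 UMIs and under 5% mitochondrial UMIs were kept, which left 2228 of the 10350 Wt1-positive cells, the summed ratio was 1.503, Krt7 (0.658) and Krt14 (0.538) passed 1.5-fold in the other direction, Krt18 was at 0.894 and Msln at 1.04, while Upk3b (3.03), Upk1b (2.23) and Lrrn4 (2.20) stayed past it. As a mean of per-cell CPM, Krt18 came to 1.54, past 1.5-fold, and Muc16 to 4.08, and without cycling cells Muc16 came to 4.29.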

How the data were processed

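The data were 2 single-cell libraries of sorted eYFP+ cells. In the deposited matrices each value was an unnormalised UMI count of a gene in a barcode. The authors obtained these counts from 10x Genomics 3' v3 libraries with CellRanger 4.0.0 on mm10. The submitters' processing notes also name bcl2fastq 2.17.1.14, STAR and Seurat 4.1.0. The other deposited files held gene and barcode names. The annotation release was not given in the sources used here.

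Cells were kept, as in the study's methods, with at least 100 genes, 500 to 40000 UMIs and under 12.5% mitochondrial UMIs. A cell took the class with most of its 10 markers detected (for the stromal-like class, the larger of the stromal and mesothelial numbers), given at least 3 markers and 2 more than any other class, and droplets that failed this, including those with markers of 2 classes, were left out in place of a doublet caller. This class rule was set for the present work, so classes may differ from the study's clusters. Cells thinned to a fixed depth were drawn without replacement (seed 7). Counts were summed per library and class and expressed as CPM. Intervals were exact (Poisson, Clopper-Pearson, or conditional binomial for a ratio), at 95%, and cover counting error only. Genes needed 50 counts over both libraries, and a 1.5-fold difference was the size counted. Levels of 0 counts were bounded by 3 counts. The ratio and its interval were tested on simulated data.

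The 10 genes and all lists were chosen with earlier results of these data known. Named were the 10 genes, up to 4 genes per further list with the highest levels, and the 10 genes most and least correlated with the sum among those with a UMI in at least 5% of cells of both libraries. Python 3.11.15, numpy 2.4.6, scipy 1.17.1, pandas 2.3.3 and matplotlib 3.10.9 were used. Alternatives covered the Wt1 gate, cell filters, doublet removal, cycling cells, scaling, low counts and thinning.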

Additional observations from a re-analysis of the deposited data

Results flagged for a closer look

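For 3 keratin and surface genes the ratio between diets pointed in opposite directions in stromal-like cells with and without a Wt1 UMI, with counting intervals on either side of 1. Opposite ratios of this kind were found for 4.77% of the 9122 genes with at least 50 counts in both populations, and for 3 of the 9 genes described here that had them. The difference was not tested, as each diet had 1 library. Krt8 had an HFD to LFD ratio of 1.91 in non-cycling Wt1-positive cells and 0.680 in Wt1-negative cells, so the former was 2.81 times the latter. Krt18 had ratios of 1.34 and 0.275, 4.87 times apart. Msln had ratios of 2.07 and 0.539, 3.85 times apart. The Wt1-negative cells were few, 503 and 273, and counts were low in HFD, with 79 of Krt8, 8 of Krt18 and 27 of Msln. Unlike the Wt1-positive cells set beside them, they included cycling cells, 13.9% in LFD and 5.86% in HFD. In all Wt1-positive cells, cycling ones included, the ratios were 1.90 for Krt8, 1.34 for Krt18 and 1.72 for Msln. With the stricter cell filter the ratio in all Wt1-positive cells was 1.52 for Krt8, 0.894 for Krt18 and 1.04 for Msln. The comparison of non-cycling Wt1-positive with Wt1-negative cells was not repeated under that filter.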

How the results depend on the processing

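No paired analysis was possible because each diet had 1 library. Single genes ranged, over the planned settings, from 3.03 to 3.87 for Upk3b, 2.23 to 3.40 for Upk1b, 2.20 to 2.47 for Lrrn4, 1.95 to 4.29 for Muc16, 1.52 to 2.02 for Krt8, 1.62 to 1.98 for Krt19, 1.04 to 2.07 for Msln, 0.894 to 1.54 for Krt18, 0.658 to 1.09 for Krt7 and 0.538 to 1.02 for Krt14.

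The summed ratio, 1.97 as reported, was 1.93 with at least 2 Wt1 UMIs, 1.93 without doublet removal, 2.08 without cycling cells, 1.82 with median-ratio scaling, 2.13 as a mean of per-cell CPM and 1.503 with the stricter cell filter, and it did not move with the other 2 settings. The number of genes past 1.5-fold was 7, all higher, in all settings but that filter, with 6 higher and 2 lower (Krt7 and Krt14), and the mean of per-cell CPM, with 8 higher. Of all genes, 13.3% to 15.4% were past it, or 31.0% with no filter on low counts. The cause was not tested. The share of cells with at least 5 genes was 2.02% in LFD and 5.79% in HFD with cells thinned to 2000 UMIs, 15.5% and 35.3% without thinning, 10.3% and 14.9% with the stricter filter, and 6.24% in LFD without cycling cells. In the groups of cells set by the other 9 genes, ratios fell below 1 for Krt18 (0.428, 0.492, 0.396 and 0.791 with 0, 1 to 2, 3 to 4 and 5 to 9), Krt8 (0.937 with 3 to 4, 0.999 with 5 to 9), Krt19 (0.945 with 3 to 4) and Msln (0.590, 0.610 and 0.829 with 0, 1 to 2 and 3 to 4). Of the 10 genes most like the sum, 8 were shared after thinning and 10 with a lower detection limit. Counts were low for Muc16 and for HFD Wt1-negative cells, which widens their intervals.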
